A study of Mus musculus with 2 samples.

Results

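The collagen genes were followed across the cell types of a parathyroid gland grown from mouse embryonic stem cells (ESCs). Every gene symbol made of Col, a number, the letter a and a number was taken, which gave 44 of the 32287 entries of the gene list. By textbook family these are 11 fibrillar collagens, 6 type IV chains of basement membranes, 3 other collagens of the basement membrane zone, 6 type VI chains, 9 fibril-associated collagens, 3 short-chain network collagens, 4 transmembrane collagens and 2 others. Single-cell RNA-seq libraries came from adult Gcm2-/- mice on a BDF1B6 background that had been complemented with Pth-tdTomato mouse ESCs. Gcm2 is a transcription factor without which the parathyroid gland does not form, and Pth encodes parathyroid hormone. In replicate 1, glands of 3 animals (age 9 to 12 weeks) were combined, and blood chimerism was 50 to 70%. In replicate 2, 5 animals (age 6 to 13 weeks) were combined, and it was 60 to 70%. Either pool contained both sexes, every host had the same genotype, and there was no second condition. The chimerism is given for blood, so whether a stromal barcode came from the host or from the ESCs is not given.

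Collagens are extracellular matrix proteins whose chains wind into triple helices. Fibrillar collagens (types I, III and V) build the fibres of connective tissue, type VI forms beaded filaments between them, and fibril-associated collagens such as type XIV sit on the fibre surface. Type IV collagen forms the sheet of every basement membrane from 6 chains, which assemble as α1α1α2, α3α4α5 or α5α5α6 trimers, and types XV and XVIII border that sheet. Transmembrane collagens (XIII, XVII, XXIII, XXV) stay anchored in the cell that makes them. An endocrine gland holds its secretory cells between capillaries, with a basement membrane on both sides and fibroblasts in the space between.

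Barcodes were sorted into 5 classes without using any collagen. Those with Pth at 5% or more of their UMIs (unique molecular identifiers, each standing for 1 counted RNA molecule) were called parathyroid. Those with Pth under 1% were called fibroblast, endothelial, mural (the cells on the outer wall of small vessels) or immune by lists of 12 markers each. In replicates 1 and 2 this gave 229 and 448 fibroblast, 109 and 272 endothelial, 8 and 18 mural, 208 and 283 immune and 662 and 2236 parathyroid barcodes, 1216 and 3257 in all. Median UMIs per barcode ran from 7595.5 in endothelial barcodes of replicate 2 to 37902 in parathyroid barcodes of replicate 1. Each of the 4 stromal classes had all 12 of its own markers, at a summed level of at least 9872 CPM (the gene's UMIs over all UMIs of the class in that library, times 1e+06). The 12 fibroblast markers summed to 871 and 1187 CPM in mural barcodes, with Gsn, Serping1 and C1s1 present and Pdgfra, Lum, Dpt, Mfap5 and Clec3b at 0. Among parathyroid barcodes, 15 in replicate 1 and 59 in replicate 2 also carried 5 or more markers of another class, mostly of fibroblasts (14 and 43). Parathyroid values include these mixed barcodes unless the sentence says that they were left out. The libraries shared 3 barcode sequences. No value was divided by gene length, since a 3′ kit counts molecules by their ends.

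Fibroblast barcodes held most of the collagen RNA. All 44 genes together reached 14619 and 17823 CPM in fibroblast barcodes, 3001 and 3720 in endothelial, 1912 and 2962 in mural, 608 and 650 in parathyroid (603 and 591 without the mixed barcodes) and 108 and 149 in immune barcodes. The order of the 5 classes was the same in both libraries. In a single fibroblast barcode, collagens made up between 0.426% and 3.77% of UMIs in replicate 1 and between 0.349% and 5.88% in replicate 2, so every fibroblast barcode carried them. Of the 44 genes, 25 reached 20 CPM in both libraries of some class and 19 did not. The number reaching it was 23 in fibroblast, 11 in mural, 6 in endothelial, 6 in parathyroid and 2 in immune barcodes. By mean level, 19 of the 25 were highest in fibroblast, 3 in endothelial, 2 in mural and 1 in parathyroid barcodes. The classes also differed in kind. Fibrillar collagens were 62.5 and 67.0% of collagen UMIs in fibroblast barcodes and 0.629 and 0.637% in endothelial barcodes. Type IV chains were 76.2 and 77.0% in endothelial and 53.1 and 44.4% in parathyroid barcodes (53.2 and 47.6% without the mixed ones), against 15.4 and 12.3% in fibroblast barcodes.

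**Figure D1:**
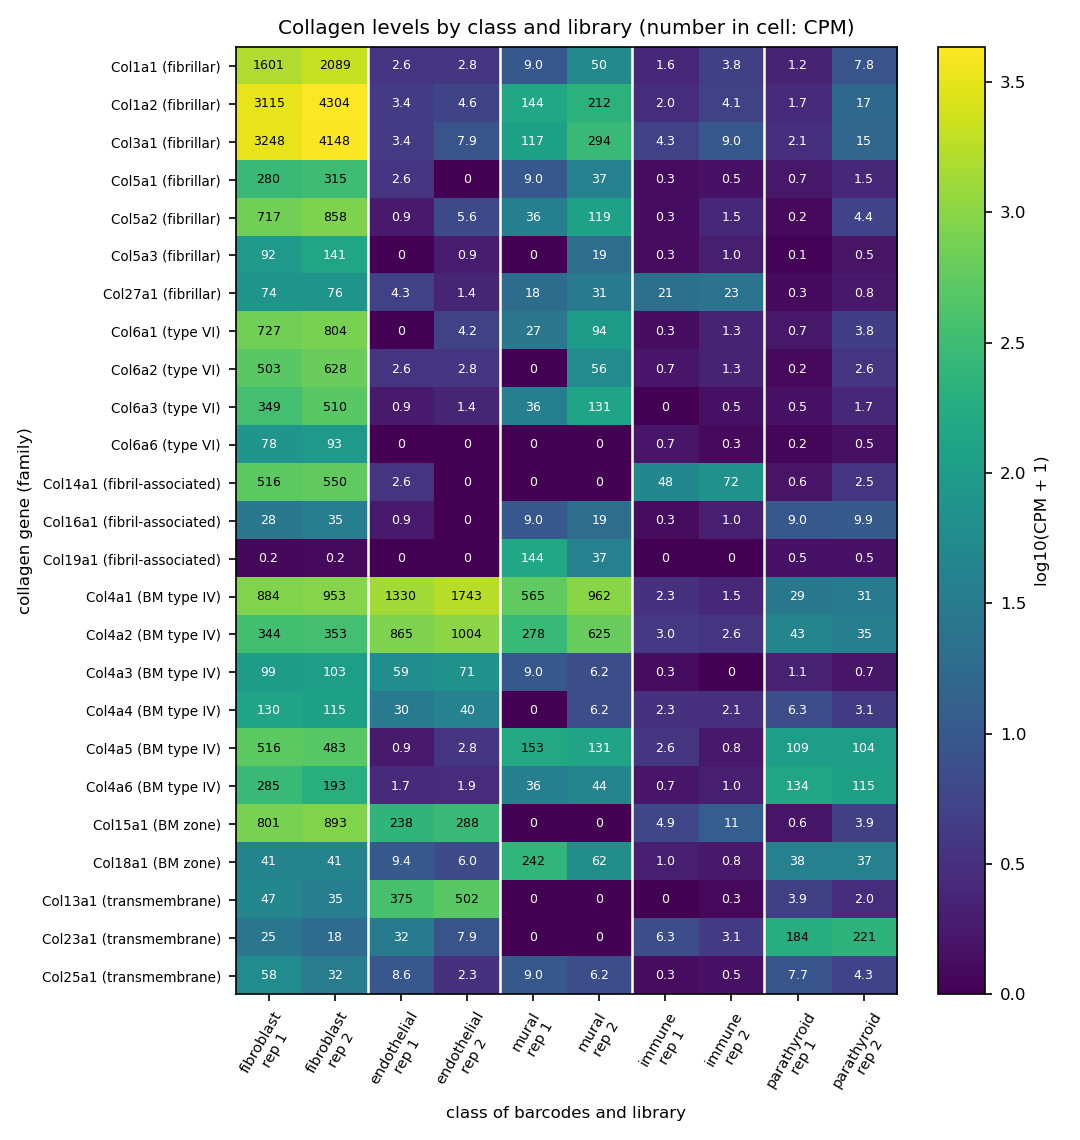
Level of the 25 collagens that reached 20 CPM, in CPM, for each class (columns) and library (rep 1, rep 2). Colour is log10(CPM + 1). Fibroblast columns are bright for fibrillar and type VI genes, endothelial columns for Col4a1, Col4a2, Col13a1 and Col15a1, and parathyroid columns for Col23a1, Col4a5 and Col4a6.

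The classes were compared in edgeR on 10 summed count profiles (5 classes in 2 libraries), with adjusted p (Benjamini-Hochberg) over all 14817 genes that passed a filter on low counts. A gene was called at an adjusted p under 0.05, and changes are log2 fold changes ± standard error (SE). The filter kept 34 of the 44 collagens and the other 10 were not tested. Between fibroblast and endothelial barcodes, 23 of the 34 were higher in fibroblasts and 3 were lower, where 22.8% and 19.6% of all genes tested were (42.3% in either direction). Between fibroblast and parathyroid barcodes, 28 were higher and 3 lower, where the shares over all genes were 29.3% and 31.1% (60.4% in either direction). A collagen could pass the filter through the class in which it is high, so these counts describe the 34 genes only.

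The 7 fibrillar collagens that reached 20 CPM were highest in fibroblast barcodes, with a lower level in mural barcodes. Col1a2, the α2 chain of type I collagen, stood at 3115 and 4304 CPM in fibroblast, 144 and 212 in mural, 3.43 and 4.65 in endothelial and 1.98 and 4.10 in immune barcodes. Col3a1, the chain of type III collagen, stood at 3248 and 4148 CPM in fibroblast, 117 and 294 in mural and 3.43 and 7.90 in endothelial barcodes. Col1a1, the other type I chain, reached 1601 and 2089 CPM in fibroblast and 8.98 and 50.0 CPM in mural barcodes. In each case both fibroblast libraries lay above both libraries of every other class. The fall from fibroblast to mural barcodes was called for Col1a2 (-4.93 ± 0.91, adjusted p = 0.030), Col3a1 (-4.77 ± 0.70, adjusted p = 0.012) and Col1a1 (-6.50 ± 0.82, adjusted p = 0.0047). Against endothelial barcodes, fibroblasts were higher by 10.31 ± 1.14 for Col1a2, 9.77 ± 0.86 for Col3a1 and 9.93 ± 0.83 for Col1a1 (adjusted p at most 0.0021). Type V chains join type I fibres and limit their width. Col5a2 was at 717 and 858 CPM, Col5a1 at 280 and 315 and Col5a3 at 92.5 and 141 in fibroblast barcodes. All 3 were called higher there than in endothelial barcodes, by 7.93 to 8.59. Col27a1 was also detected outside fibroblasts, at 74.1 and 75.8 CPM in fibroblast, 18.0 and 31.2 in mural and 20.8 and 23.1 in immune barcodes. In fibroblast barcodes the ratios of the type I and III genes were close between libraries, with 1.95 and 2.06 UMIs of Col1a2 and 2.03 and 1.99 UMIs of Col3a1 for each UMI of Col1a1. The cartilage collagen Col2a1 had 2 UMIs in all 5 classes together.

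The 4 type VI chains that reached 20 CPM and type XIV collagen were likewise highest in fibroblast barcodes. The 3 classical type VI chains in fibroblast barcodes were Col6a1 at 727 and 804 CPM, Col6a2 at 503 and 628 and Col6a3 at 349 and 510. None of them passed 4.18 CPM in an endothelial or immune library. Mural barcodes carried Col6a3 at 35.9 and 131 CPM, called lower than in fibroblasts (-2.78 ± 0.32, adjusted p = 2.4e-05) and higher than in endothelial barcodes (6.07 ± 0.63, adjusted p = 9.5e-06). Col6a6, a further type VI chain, was at 78.3 and 92.7 CPM in fibroblast barcodes and had no UMI in endothelial or mural barcodes. Against a floor of 3 counts over the whole class, it was at least 96.8-fold higher in fibroblast than in endothelial barcodes. Col14a1, which binds to the surface of type I fibres, stood at 516 and 550 CPM in fibroblast barcodes and had no UMI in mural barcodes, at least 48.7-fold lower. Col16a1, another fibril-associated collagen, was lower at 27.7 and 34.9 CPM in fibroblasts, with 8.98 and 18.7 in mural and 9.02 and 9.86 in parathyroid barcodes.

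Type IV collagen was found in fibroblast, endothelial, mural and parathyroid barcodes, with a different mix of chains in each. Its genes lie in pairs that start head to head on opposite strands. Col4a1 (minus strand, chr8:11198423-11312826) and Col4a2 (plus strand, chr8:11312805-11449287) share the bases between their starts in the mouse annotation GENCODE vM21 (build GRCm38). Col4a4 and Col4a3 on chromosome 1 start 72 bases apart, and Col4a6 and Col4a5 on chromosome X start 1309 bases apart. The sequences below are shared or upstream bases of these pairs, shown because the members of a pair differed in level. For Col4a5 and Col4a6 only the bases next to each start are printed. They come from RefSeq's promoter table (GRCm38.p6), which held 35 of the 44 genes. Capitals mark matches, on either strand, to the GC box GGGCGG, the CCAAT box CCAAT or the TATA box TATAAA. The first line is chr8:11312805-11312826, read on the plus strand, and lies in the first exons of both genes. The second is chr1:82586850-82586920, the plus strand between the starts of Col4a4 and Col4a3. The last 2 are the bases before the start of Col4a5 (chrX:141475169-141475384, plus strand) and before that of Col4a6 (chrX:141474077-141474326, minus strand), both outside annotated exons.
Col4a1 and Col4a2: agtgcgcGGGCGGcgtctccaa
Col4a4 and Col4a3: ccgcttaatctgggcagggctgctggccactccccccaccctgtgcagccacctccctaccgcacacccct
Col4a5: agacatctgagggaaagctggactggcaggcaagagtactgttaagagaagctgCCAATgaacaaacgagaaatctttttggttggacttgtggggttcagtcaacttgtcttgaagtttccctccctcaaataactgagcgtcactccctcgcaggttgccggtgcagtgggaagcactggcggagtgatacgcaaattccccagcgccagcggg
Col4a6: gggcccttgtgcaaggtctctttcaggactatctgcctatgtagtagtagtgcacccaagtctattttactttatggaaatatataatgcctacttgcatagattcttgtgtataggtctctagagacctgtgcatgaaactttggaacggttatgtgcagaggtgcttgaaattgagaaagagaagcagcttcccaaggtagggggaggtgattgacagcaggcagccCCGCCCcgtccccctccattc
The first line and the Col4a6 line each held 1 GC box, the Col4a5 line held 1 CCAAT box, and the Col4a4 and Col4a3 line held none of the 3. In the order printed the lines are 22, 71, 216 and 250 bases long, so the shorter ones can miss motifs nearby. In the 250 bases before their RefSeq starts, Col4a1 and Col4a2 each had 1 CCAAT box. Col4a2 also had 2 GC boxes there, and Col4a5 had 1 GC box beside its CCAAT box. Over the 250 bases before each of the 32851 starts in the table, a GC box was found in 32.7%, a CCAAT box in 33.8% and TATAAA in 12.4%. Of the 38 collagen starts, 22 had a GC box, 13 a CCAAT box and 5 TATAAA.

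The α1 and α2 chains, found in nearly all basement membranes, led in endothelial barcodes. Col4a1 was at 1330 and 1743 CPM in endothelial, 884 and 953 in fibroblast, 565 and 962 in mural, 28.5 and 31.1 in parathyroid and 2.31 and 1.54 in immune barcodes. Col4a2 was at 865 and 1004 CPM in endothelial, 344 and 353 in fibroblast, 278 and 625 in mural and 43.4 and 34.6 in parathyroid barcodes. Endothelial libraries lay above all others for both genes. From endothelial barcodes to fibroblasts, Col4a2 fell by 1.24 ± 0.23 (log2, adjusted p = 0.00099). For Col4a1 the change was -0.55 ± 0.17 (adjusted p = 0.015), and the call ended without the library block (adjusted p = 0.088). Mural and fibroblast barcodes overlapped in both genes. The Col4a1 call between them (-0.65 ± 0.18, adjusted p = 0.022) ended under another scaling, in DESeq2 and without the block, and Col4a2 was not called. Although their starts overlap, these genes were not in the same proportion in each class. For each Col4a2 UMI there were 2.57 and 2.70 Col4a1 UMIs in fibroblast barcodes (95% exact intervals 2.43 to 2.72 and 2.59 to 2.82), 1.54 and 1.74 in endothelial barcodes (1.42 to 1.66 and 1.65 to 1.83) and 0.656 and 0.8996 in parathyroid barcodes (0.657 and 0.799 without the mixed ones).

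The α5 and α6 chains had another distribution. Col4a5 stood at 516 and 483 CPM in fibroblast, 153 and 131 in mural and 109 and 104 in parathyroid barcodes, and at 0.858 and 2.79 in endothelial barcodes. Col4a6 stood at 285 and 193 CPM in fibroblast, 134 and 115 in parathyroid and 35.9 and 43.7 in mural barcodes, and at 1.72 and 1.86 in endothelial barcodes. Endothelial barcodes, highest for Col4a1 and Col4a2, thus lay far below fibroblast, mural and parathyroid barcodes here. Fibroblasts exceeded endothelial barcodes by 8.06 ± 0.34 for Col4a5 and 7.16 ± 0.30 for Col4a6 (adjusted p = 3.7e-10 for each), and mural barcodes exceeded them by 5.87 ± 0.46 and 4.27 ± 0.61. From parathyroid to endothelial barcodes the genes fell by 5.95 ± 0.35 and fell by 6.37 ± 0.31 (adjusted p = 4.2e-09 and 5.2e-10). Between parathyroid and mural barcodes, Col4a5 was not called (adjusted p = 0.89) and Col4a6 was lower in mural barcodes (-2.09 ± 0.33, adjusted p = 0.00028). The mural value of Col4a6 rested on 4 and 7 UMIs.

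The α3 and α4 chains, best known from kidney and lung, were the least abundant pair in fibroblast, mural and parathyroid barcodes, but in endothelial barcodes they exceeded Col4a5 and Col4a6. Col4a3 was at 98.7 and 103 CPM in fibroblast and 59.2 and 70.6 in endothelial barcodes. Col4a4 was at 130 and 115 CPM in fibroblast and 30.0 and 40.4 in endothelial barcodes. Fibroblasts were higher by 0.80 ± 0.22 for Col4a3 (adjusted p = 0.0081, but 0.15 in DESeq2) and by 1.91 ± 0.27 for Col4a4 (adjusted p = 7.2e-05). Parathyroid barcodes held 6.27 and 3.09 CPM of Col4a4 and at most 1.15 of Col4a3. An opposite-strand gene overlaps the 3′ end of Col4a3 and of Col4a1, and the sources used here do not give whether counting used strand.

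As shares of all type IV UMIs, the 3 pairs gave compositions that were close between libraries in endothelial and parathyroid barcodes and further apart in mural barcodes. Col4a1 with Col4a2 made up 96.0% in both endothelial libraries, 81.0 and 89.4% in mural, 54.4 and 59.3% in fibroblast and 22.3 and 22.7% in parathyroid barcodes. Col4a5 with Col4a6 made up 75.4 and 76.0% in parathyroid, 35.5 and 30.7% in fibroblast, 18.1 and 9.86% in mural and 0.113 and 0.162% in endothelial barcodes. Leaving out the parathyroid barcodes with markers of another class gave 75.4 and 77.8%. Col4a3 with Col4a4 stayed between 9.93 and 10.1% in fibroblast barcodes and at 3.901 and 3.88% in endothelial barcodes.

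**Figure D2:**
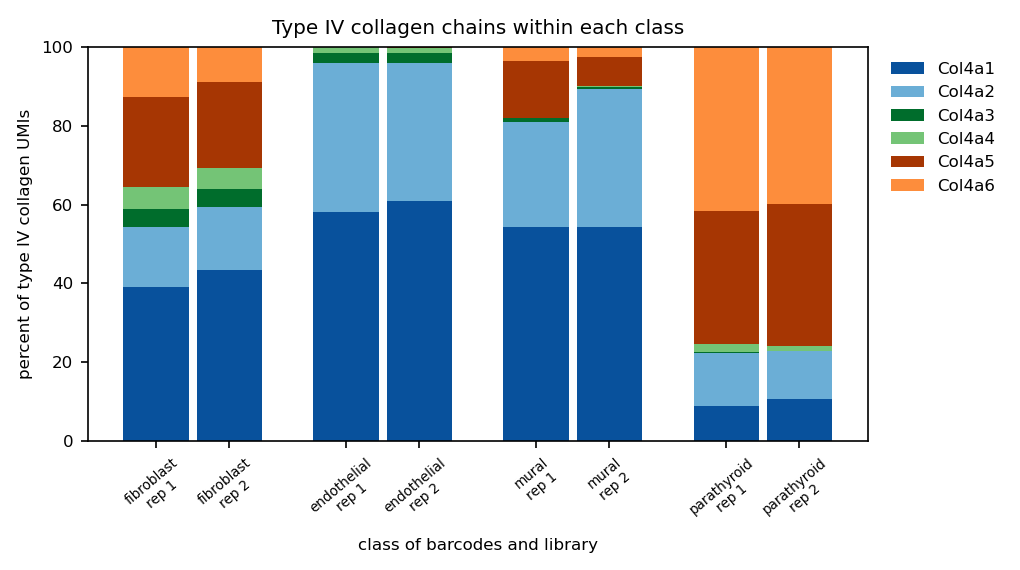
Share of each of the 6 type IV chains among all type IV UMIs (percent), as stacked bars for 4 classes in each library. Col4a1 and Col4a2 (blue) fill 96.0% of both endothelial bars, and Col4a5 and Col4a6 (brown and orange) fill 75.4 and 76.0% of the parathyroid bars.

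Types XV and XVIII differed from each other. Col15a1 was at 801 and 893 CPM in fibroblast and 238 and 288 in endothelial barcodes, a difference that was not called (1.89 ± 0.61, adjusted p = 0.080). The parathyroid sums, which enter the common estimate of the spread, held 18 of its UMIs in replicate 1. In replicate 2 they held 277, or 41 without the mixed barcodes. Col15a1 had no UMI in mural barcodes, at least 77.8-fold below fibroblasts and 24.5-fold below endothelial barcodes. Col18a1, whose protein carries the endostatin fragment, was at 242 and 62.5 CPM in mural, 40.7 and 40.9 in fibroblast, 37.8 and 36.9 in parathyroid and 9.44 and 6.04 in endothelial barcodes. Its mural libraries lay above those of every other class, and 44.4% of the mural UMIs of replicate 1 came from a single barcode. The rise over fibroblasts (1.40 ± 0.41, adjusted p = 0.035) was lost with stricter Pth limits or stricter typing. Fibroblast barcodes exceeded endothelial ones by 2.65 ± 0.40 (adjusted p = 0.00013), and endothelial barcodes were below parathyroid ones (-2.64 ± 0.39, adjusted p = 7.6e-05). Slc19a1 overlaps the 3′ end of Col18a1 on the opposite strand. Col7a1, which anchors skin basement membrane, did not pass 2.15 CPM in any library.

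Each of 2 transmembrane collagens marked a different class. Col13a1 was at 375 and 502 CPM in endothelial barcodes, 47.1 and 34.5 in fibroblast and 3.87 and 1.99 in parathyroid barcodes, and at most 0.257 in immune barcodes. It had no UMI in mural barcodes, at least 41.4-fold below endothelial barcodes. From endothelial barcodes to fibroblasts it fell by 3.29 ± 0.30 (log2, adjusted p = 2.0e-05), and endothelial barcodes exceeded parathyroid barcodes by 7.01 ± 0.35 (adjusted p = 2.1e-07). A Col13a1 UMI was present in 79.8 and 88.6% of endothelial barcodes. Among those with at least 5000 UMIs, each thinned to 5000, it was present in 69.9 and 82.1%. Thinned shares given below also leave out barcodes of fewer UMIs. Col23a1 was at 184 and 221 CPM in parathyroid barcodes, 25.5 and 17.7 in fibroblast, 31.7 and 7.90 in endothelial and 6.26 and 3.08 in immune barcodes, and had no UMI in mural barcodes. Both parathyroid libraries lay above all others. Against parathyroid barcodes the change was -3.41 ± 0.43 in fibroblasts (adjusted p = 0.00079), -3.88 ± 0.50 in endothelial barcodes (adjusted p = 0.0011) and -5.59 ± 0.55 in immune barcodes (adjusted p = 0.00023). Col25a1 was at 58.3 and 32.0 CPM in fibroblast barcodes and at 8.98 or less elsewhere. Col17a1, the hemidesmosome collagen of skin, had 24 UMIs in the 5 classes together.

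The start of Col23a1 is shown because it was the collagen of highest level in parathyroid barcodes, beside that of Col3a1, a gene of the opposite pattern. These are the 250 bases upstream of each start in RefSeq (GRCm38.p6), chr11:51289670-51289919 and chr1:45311288-45311537, both on the plus strand and outside annotated exons, with matches to the same 3 motifs in capitals.
Col23a1: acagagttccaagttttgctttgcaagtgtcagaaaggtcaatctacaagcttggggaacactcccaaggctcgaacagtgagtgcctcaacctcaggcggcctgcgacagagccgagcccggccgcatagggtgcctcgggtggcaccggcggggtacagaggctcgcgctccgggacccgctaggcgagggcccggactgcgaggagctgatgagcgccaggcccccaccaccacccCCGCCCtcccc
Col3a1: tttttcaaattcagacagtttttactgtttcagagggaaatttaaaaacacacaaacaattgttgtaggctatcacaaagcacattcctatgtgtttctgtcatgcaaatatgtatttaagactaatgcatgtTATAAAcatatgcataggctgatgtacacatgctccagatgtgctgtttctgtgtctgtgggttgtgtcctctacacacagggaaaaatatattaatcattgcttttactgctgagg
The Col23a1 stretch held 1 GC box, and the Col3a1 stretch held 1 TATAAA.

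Parathyroid barcodes thus carried a short set of collagens. Those at 20 CPM or more in both libraries were Col23a1, Col4a6, Col4a5, Col4a2, Col18a1 and Col4a1. Col26a1, a collagen of the matrix of testis and ovary, reached 19.5 and 13.1 CPM there and at most 0.792 CPM in any other library. From parathyroid to fibroblast barcodes it fell by 4.53 ± 0.43 (log2, adjusted p = 1.6e-06), and endothelial barcodes, with no UMI, were at least 16.6-fold lower. Col9a2, a fibril-associated collagen of cartilage, was at 3.12 and 3.58 CPM in parathyroid barcodes and at most 0.858 elsewhere. In single barcodes, a Col23a1 UMI was found in 90.8 and 88.0% of parathyroid barcodes (52.9 and 54.5% after thinning to 5000 UMIs), against 28.8 and 20.8% of fibroblasts (7.11 and 8.17% after thinning). For Col4a6 the parathyroid shares were 88.2 and 84.1% (42.9 and 39.6% after thinning), and for Col4a5 88.4 and 83.9% (39.9 and 36.1%). Endothelial barcodes, taken as the class that lacked them, had a Col4a6 UMI in 1.83 and 1.47% and a Col4a5 UMI in 0.917 and 1.47%.

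**Figure D3:**
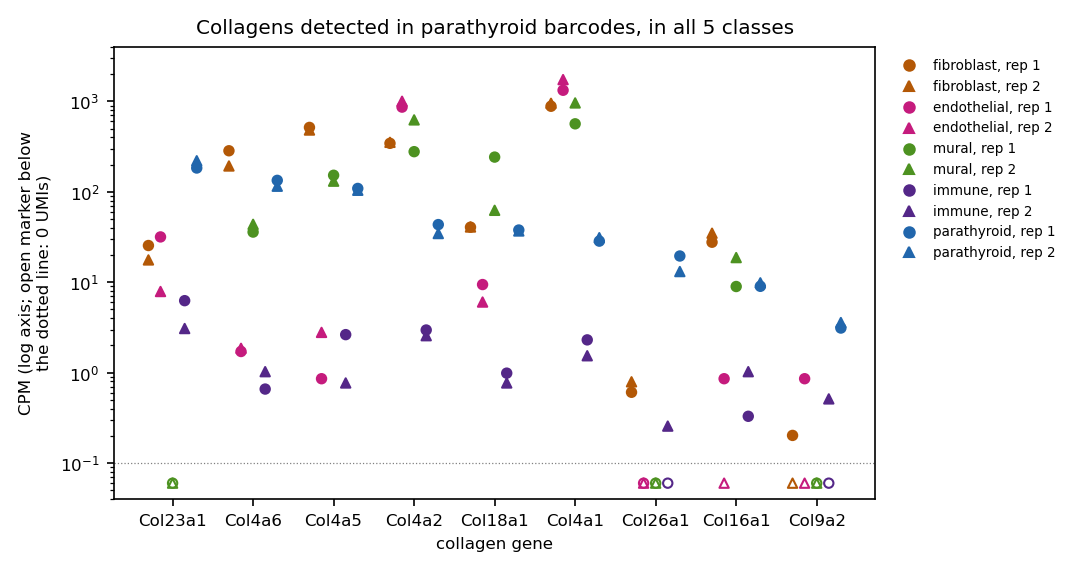
Level (CPM, log axis) of 9 collagens detected in parathyroid barcodes, in all 5 classes and both libraries (circle rep 1, triangle rep 2, open marker 0 UMIs). Parathyroid points (blue) lie above every other class for Col23a1, at 184 and 221 CPM, and for Col26a1 and Col9a2.

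As a measure of the fibroblast RNA present in the parathyroid sums, each collagen was set beside 5 fibroblast markers (Dcn, Lum, Dpt, Mfap5 and Clec3b). These stood in parathyroid barcodes at 0.0602 to 0.161% of their fibroblast level in replicate 1 and 0.425 to 0.663% in replicate 2, and at 0.0492 to 0.129% in replicate 2 without barcodes that held markers of another class. Col1a2 stood at 0.0537 and 0.386%, and at 0.0559 and 0.0402% without them, which is within or below the range of the markers. Col3a1 stood at 0.0657 and 0.357%, and at 0.0654 and 0.0699% without them. Some fibrillar and type VI genes of lower level lay higher. Col27a1 was above all 5 markers, at 0.354 and 1.02%, and at 0.329 and 0.285% without the mixed barcodes. Without those barcodes Col5a1 (0.274 and 0.188%) and Col6a6 (0.222 and 0.171%) were above the markers too. With all barcodes, Col5a1 (0.258%) and Col6a6 (0.21%) were above them in replicate 1. In replicate 2 they were within the marker range (0.489 and 0.498%). All 5 markers were among those counted to find mixed barcodes, and no collagen was. Leaving those barcodes out thus lowered the marker range in part by selection, so a level above that range does not show expression in parathyroid cells. The range also depends on the markers chosen. Over all parathyroid barcodes, the 12 fibroblast markers summed to 72.0 and 199 CPM, against 26532 and 29059 CPM in fibroblast barcodes. That is a higher share than any of the 5 had in either library. Where the RNA of Col5a1 and Col6a6 came from was not tested. By contrast, Col4a5 was at 21.1 and 21.6% of the fibroblast level, Col4a6 at 47.1 and 59.7%, Col18a1 at 93.0 and 90.4% and Col16a1 at 32.5 and 28.3%. Col4a2 was at 12.6 and 9.80% and Col4a1 at 3.22 and 3.27%. These 6 genes lay above all 5 markers in both libraries, with or without the mixed barcodes. In the other direction, Pth stood in fibroblast barcodes at 0.823 and 0.838% of its parathyroid level. Pth also formed both classes, so its ratio was set in part by the sorting. Of parathyroid markers not used in the sorting, Chga, a secretory granule protein, stood in fibroblast barcodes at 0.753 and 0.783%. Casr stood there at 0.636 and 0.72% and Gcm2 at 1.55 and 1.07%. Col23a1 stood there at 13.9 and 8.0% and Col26a1 at 3.11 and 6.03%, the latter on 3 and 7 UMIs.

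**Figure D4:**
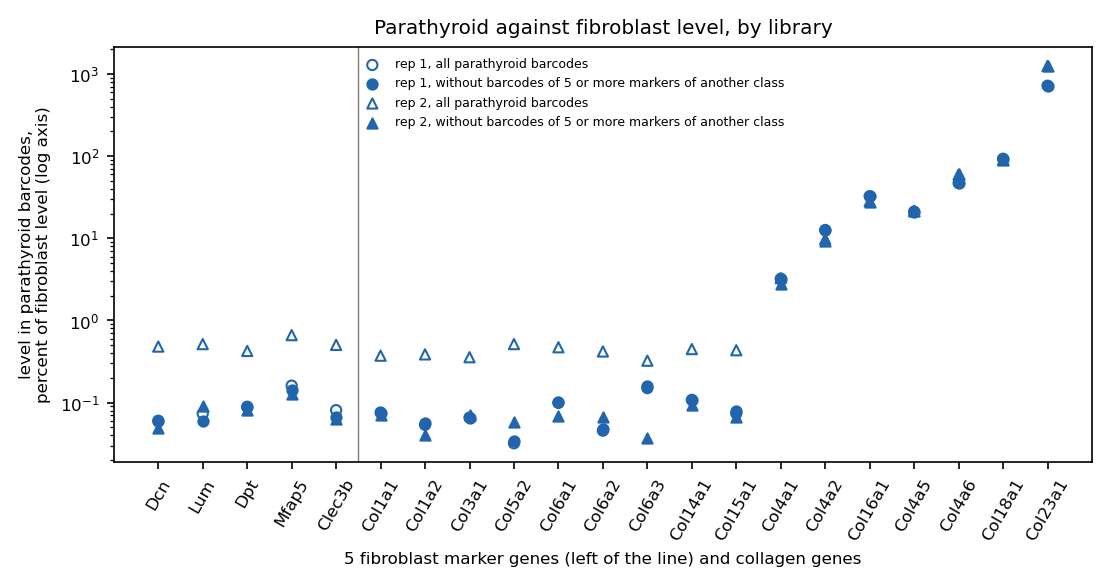
Level in parathyroid barcodes as percent of the fibroblast level in the same library (log axis), for 5 fibroblast markers left of the line and for collagens right of it. Open markers are all parathyroid barcodes and filled markers leave out those with 5 or more markers of another class. Col1a1, Col1a2, Col3a1, Col5a2, Col6a1 and Col6a2 lie within or below the range of the markers, and Col4a1, Col4a2, Col16a1, Col4a5, Col4a6, Col18a1 and Col23a1 lie above them.

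Without the mixed barcodes, the fibroblast excess over parathyroid barcodes of Col1a2 grew from 9.00 to 10.94 (log2), and all 31 calls of that comparison stood. Between endothelial and parathyroid barcodes, 8 collagens were called higher in endothelial barcodes and 7 in parathyroid barcodes, where 24.6% of all genes tested were called higher and 30.2% lower (54.8% in either direction). The 8 were Col4a1 (5.37 ± 0.20), Col4a2 (4.27 ± 0.26), Col4a3 (5.95 ± 0.28), Col4a4 (2.74 ± 0.30), Col13a1, Col15a1 (6.68 ± 0.77), Col8a1 and Col9a3. Tcfl5 overlaps the 3′ end of Col9a3 on the opposite strand. The 7 were Col4a5, Col4a6, Col16a1, Col18a1, Col23a1, Col26a1 and Col9a2. Col9a2 was lost in DESeq2 (adjusted p = 0.12). Without the mixed barcodes, 13 were higher in endothelial barcodes and 7 lower (25.6% and 30.8% of all genes), the additions being Col1a2, Col3a1, Col5a2, Col6a2 and Col27a1. In endothelial barcodes the 5 fibroblast markers stood at 0 to 0.402% and 0 to 0.257% of their fibroblast level. The sorting used these markers and no collagen, so it set this range in part. Col1a2 (0.110 and 0.108%) and Col3a1 (0.106 and 0.19%) lay within that range. Col6a2 (0.511 and 0.444%) and Col27a1 (5.79 and 1.84%) lay above it, and Col5a2 only in replicate 2. The source of this RNA was not tested.

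Immune barcodes carried little collagen, and 2 genes made up most of it. Col14a1 was at 48.1 and 71.8 CPM, which is 9.32 and 13.1% of the fibroblast level, and Col27a1 was at 28.0 and 30.4% of it. The 5 fibroblast markers stood in immune barcodes at no more than 0.286% of their fibroblast level. They helped sort the barcodes and no collagen did, so that ceiling was set in part by the sorting. All 12 fibroblast markers summed to 118 and 154 CPM in immune barcodes, against 26532 and 29059 CPM in fibroblast barcodes. That is a higher share than any of the 5 had. Both genes were higher in immune than in parathyroid barcodes, by 5.21 ± 0.63 for Col14a1 (adjusted p = 0.0017) and 5.17 ± 0.34 for Col27a1 (adjusted p = 1.1e-08). They were the 2 collagens called higher there, while 14 were called lower, against 28.9% and 35% of all genes tested (63.9% in either direction). When immune barcodes were divided by further marker lists, Col14a1 was found almost wholly in macrophages, at 125 and 127 CPM with a UMI in 31 of 69 and 62 of 137 barcodes. Dendritic, lymphoid and neutrophil barcodes of both libraries together held 1 UMI. Col27a1 was shared by macrophages (29.2 and 31.4 CPM) and dendritic barcodes (34.7 and 27.6 CPM), and lymphoid and neutrophil barcodes had none. Col15a1 in macrophages was at 12.9 and 19.1 CPM. These subtypes have no test of their own. Without the mixed parathyroid barcodes, 7 collagens were higher and 11 lower in immune barcodes (29.7% and 35.7% of all genes). Col1a1, Col1a2, Col3a1, Col5a3 and Col15a1 were then called higher, and Col13a1, Col4a3 and Col6a3 were no longer called. Barcodes were left out on the parathyroid side only. In immune barcodes Col1a1, Col1a2 and Col3a1 stood at no more than 0.216% of their fibroblast level, within or below the range of the 5 markers. Col5a3 lay above that range at 0.356 and 0.726%, on 1 and 4 UMIs. The source of this RNA was not tested. Of the 14 lower calls, Col6a3 and Col4a3 were lost in 8 of the 10 alternative fits.

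Mural barcodes were few, 8 and 18, so each mural level rests on few UMIs. Their collagen was mainly type IV, at 54.5 and 59.9% of collagen UMIs, followed by fibrillar genes at 20.2 and 26.4%. A single barcode in each library held 17.8 and 20.3% of the mural collagen UMIs. With the barcode richest in collagen left out of each class, the calls of Col5a1, Col5a3 and Col6a1 over parathyroid barcodes were lost. The call of Col5a1 over endothelial barcodes was lost too. Against fibroblasts, 3 collagens were called higher in mural barcodes and 19 lower, where 6.42% and 9.82% of all genes tested were (16.2% in either direction). The 3 were Col18a1, Col19a1 and Col24a1. Col19a1, a fibril-associated collagen, was at 144 and 37.5 CPM in mural barcodes and at most 0.525 CPM in any other library (8.06 ± 0.97 over fibroblasts, adjusted p = 8.4e-05). It came from 4 of 8 and 2 of 18 mural barcodes. Col24a1, a minor fibrillar collagen, was at 44.9 and 18.7 CPM from 1 mural barcode in each library, so its call has no spread between cells behind it. Against endothelial barcodes, 10 collagens were called higher in mural barcodes and 4 lower, where 7.3% and 9.93% of all genes tested were (17.2% in either direction). The 4 lower were Col4a1 (-1.20 ± 0.18), Col4a2 (-1.22 ± 0.26), Col4a3 (-3.34 ± 0.72) and Col13a1. Without the mixed parathyroid barcodes, which enter the common estimate of the spread, the count was 16 higher and 5 lower (8.01% and 10.5% of all genes). Among those added, Col1a1, Col1a2, Col5a2, Col5a3, Col6a1 and Col6a2 were higher and Col15a1 was lower in mural barcodes. Against parathyroid barcodes, 11 were higher and 3 lower, where 10.6% and 12.9% of all genes tested were (23.5% in either direction), and without the mixed barcodes 15 and 3 (11.3% and 13.8%). Col5a3 was among the 11 (4.38 ± 1.38, adjusted p = 0.033), had no mural UMI in replicate 1, and turned to -0.69 when replicate 2 was left out. DESeq2's scaling raised the share of higher calls over all genes of that comparison from 45.0 to 55.9%.

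Fibroblast barcodes did not share a single collagen profile. They were divided by gene pairs that earlier results of these data had given, A2m with Spon1 (63 and 174 barcodes), Apod with Cxcl14 (63 and 89) and Pappa2 with Cilp (13 and 18). The other 90 of 229 and 167 of 448 fibroblast barcodes fell in no pair and are left out here. The Apod and Cxcl14 barcodes had Col4a1 at 1382 and 1468 CPM, against 772 and 890 in A2m and Spon1 barcodes and 290 and 314 in Pappa2 and Cilp barcodes. Col15a1 had the same order, at 1216 and 1312, 694 and 823, and 447 and 518 CPM. Col6a6 reached 144 and 177 CPM in the Apod and Cxcl14 barcodes, 61.9 and 73.5 in the A2m and Spon1 barcodes and 0 and 3.05 in the Pappa2 and Cilp barcodes. Col3a1 ran the other way, highest in the Pappa2 and Cilp barcodes at 4512 and 5328 CPM and lowest in the Apod and Cxcl14 barcodes at 3212 and 4155. These are descriptions with no test, and the pairs were chosen with these data known.

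**Figure D5:**
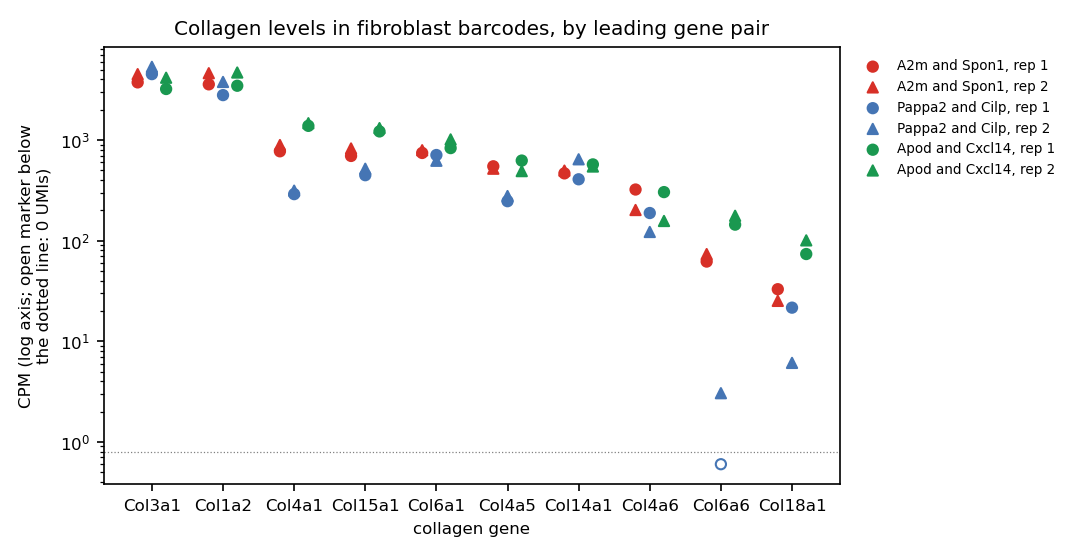
Level (CPM, log axis) of 10 collagens in fibroblast barcodes with A2m and Spon1 (red), Pappa2 and Cilp (blue) or Apod and Cxcl14 (green), for each library (circle rep 1, triangle rep 2, open marker 0 UMIs). Col4a1, Col15a1, Col6a6 and Col18a1 are highest in the green points, and Col3a1 in the blue ones.

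The 19 collagens under the 20 CPM limit had from 2 to 1544 UMIs in the 5 classes together. Besides Col24a1, Col26a1 and Col9a2, described above, the highest were Col20a1 at 17.0 and 16.6 CPM and Col12a1 at 10.7 and 12.9 CPM in fibroblast barcodes. Both are fibril-associated and both were called higher in fibroblast than in endothelial barcodes (1.82 ± 0.43 and 2.47 ± 0.57). The short-chain collagens of vessel and eye membranes, Col8a1 and Col8a2, were at 7.08 and 3.85 and at 7.49 and 6.34 CPM in fibroblasts, and Col8a1 was at 5.15 and 5.11 CPM in endothelial barcodes. Col10a1, made by growth plate cartilage, had 13 UMIs, Col22a1 had 5 and Col6a4 had 2, all in parathyroid barcodes. Nt5dc1 overlaps the 3′ end of Col10a1 on the opposite strand.

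Genes that make, process and bind collagen were taken from fixed lists. Of 21 folding and modifying enzymes, 16 were higher in fibroblast than in endothelial barcodes and 1 was lower, where 22.8% and 19.6% of all genes tested were. P3h3, a prolyl 3-hydroxylase family member, was at 107 and 130 CPM in fibroblasts against 5.15 and 3.25 (5.12 ± 0.30). Serpinh1, the collagen chaperone HSP47, was at 524 and 705 CPM in fibroblasts, 157 and 267 in endothelial and 10.3 and 15.2 in parathyroid barcodes. The exception was Colgalt2, a collagen galactosyltransferase, at 28.3 and 25.5 CPM in fibroblasts against 133 and 108 in endothelial barcodes (-1.98 ± 0.27, adjusted p = 3.6e-05). The lysyl hydroxylase Plod1 was not called (0.02 ± 0.26). Against parathyroid barcodes, 16 enzymes were higher in fibroblasts and 3 were lower, where 29.3% and 31.1% of all genes tested were. P3h2, a prolyl 3-hydroxylase that acts on type IV collagen, was among the lower, at 12.8 and 16.7 CPM in fibroblasts against 197 and 210 in parathyroid barcodes (-3.92 ± 0.45, adjusted p = 0.00024). P3h2 was also at 180 and 156 CPM in mural barcodes and at 12.0 and 4.18 in endothelial barcodes.

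Enzymes that cleave and crosslink procollagen were listed next. Of 12 tested of a list of 14, 10 were higher in fibroblast than in endothelial barcodes and 1 was lower (22.8% and 19.6% of all genes tested). Against parathyroid barcodes, 11 were higher in fibroblasts and none was lower (29.3% and 31.1% of all genes). Adamts2, which removes the N-propeptide of fibrillar procollagen, was at 182 and 189 CPM in fibroblasts and 0 and 0.929 in endothelial barcodes. Loxl1, a lysyl oxidase, was at 181 and 176 CPM against 0.858 and 0. Tll1, a protease of the family that removes the C-propeptide, was the endothelial member, at 41.2 and 42.8 CPM against 0.607 and 2.04 (-4.70 ± 0.55, adjusted p = 2.0e-05). The crosslinker Tgm2 was not called between the 2 classes (adjusted p = 0.79), at 111 and 132 against 145 and 184 CPM.

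Of 13 proteoglycans and glycoproteins that decorate fibres, 12 were higher in fibroblast than in endothelial barcodes and none was lower, where 22.8% and 19.6% of all genes tested were. Ogn, a small leucine-rich proteoglycan, was at 593 and 624 CPM in fibroblasts and 0 and 0.465 in endothelial barcodes, and Fbn1, the microfibril protein, at 335 and 289 against 30.9 and 24.2. Sparc, a collagen-binding matrix protein, was high in both, at 1799 and 2687 CPM in fibroblasts and 1556 and 2100 in endothelial barcodes, against 31.2 and 39.5 in parathyroid barcodes. Against parathyroid barcodes, 12 were higher in fibroblasts and 1 was lower, where 29.3% and 31.1% of all genes tested were. The 1 lower was Postn, which encodes periostin, at 518 and 528 CPM in parathyroid barcodes against 21.0 and 11.7 in fibroblasts (-5.17 ± 0.47, adjusted p = 6.9e-05). It was also at 117 and 344 CPM in mural barcodes.

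Of 16 partners of type IV collagen in the basement membrane, 9 were higher in fibroblast than in endothelial barcodes and 3 lower, where 22.8% and 19.6% of all genes tested were, so the share of lower partners was near that of all genes. Against parathyroid barcodes, 11 were higher in endothelial barcodes and 2 lower (24.6% and 30.2% of all genes). Laminin α3 (Lama3, 231 and 280 CPM) and α5 (Lama5, 50.6 and 46.0 CPM) were endothelial, with at most 0.906 CPM in fibroblasts. Hspg2, encoding perlecan, was not called between endothelial (574 and 501 CPM) and fibroblast barcodes (373 and 341 CPM, adjusted p = 0.089), and it was at 7.19 and 5.57 CPM in parathyroid barcodes. Between fibroblast and parathyroid barcodes, 13 partners were higher in fibroblasts and 3 lower (29.3% and 31.1% of all genes). Parathyroid barcodes were higher in laminin α1 (Lama1, 38.5 and 32.1 CPM against 1.82 and 0.906 in fibroblasts, adjusted p = 2.5e-08). Mural barcodes had Lama5 at 126 and 169 CPM.

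Of 10 collagen receptors tested, 4 were higher in fibroblast than in endothelial barcodes and 3 lower, where 22.8% and 19.6% of all genes tested were. Itga1, the α1 subunit of a collagen-binding integrin, was at 519 and 628 CPM in endothelial, 314 and 487 in mural and 35.8 and 30.6 in fibroblast barcodes. Mrc2, an endocytic collagen receptor, was at 109 and 95.0 CPM in fibroblasts against 10.3 and 6.51 in endothelial barcodes. Ddr1, a collagen receptor kinase of epithelia, was higher in parathyroid (26.7 and 27.1 CPM) than in fibroblast barcodes (13.8 and 9.62), a log2 difference of fibroblast minus parathyroid barcodes of -1.37 ± 0.25 (adjusted p = 0.00028). Of 15 proteases and inhibitors, 9 were higher in fibroblast than in endothelial barcodes and 2 lower, beside the same shares of 22.8% and 19.6%. Mmp14, a membrane-bound collagenase, was at 391 and 384 CPM in fibroblasts, 50.6 and 47.7 in parathyroid and 12.0 and 9.30 in endothelial barcodes. The inhibitor Timp3 was at 2626 and 3477 CPM in endothelial and 2208 and 3587 in mural barcodes against 171 and 194 in fibroblasts. Timp4, another inhibitor, was at 52.3 and 50.9 CPM in parathyroid barcodes and at most 1.86 in fibroblast or endothelial barcodes.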

How the data were processed

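The 2 libraries were made with a 10x 3′ v3.1 kit from glands digested with papain, collagenase XI and trypsin and sorted to discriminate doublets, per the labels' protocols. The authors deposited raw UMI counts per gene and barcode, made with Cell Ranger 7.0.0 on build mm10 per the submitters' processing notes. The sources used here do not give whether intronic reads were counted or how barcodes were called. The files held 1406 barcodes with 41517620 UMIs and 3518 with 88283761.

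Quality limits of 500 genes, 15% mitochondrial UMIs and 5% haemoglobin UMIs left out 147 and 199 barcodes, and doublets that Scrublet in scanpy 1.11.5 predicted (21 and 8 of all barcodes, 17 and 8 of those left) were removed. A class needed at least 5 detected markers of its list and a lead of 4 over the next list, and these limits were set after the marker counts had been seen. Barcodes without a class (12 and 32) or with Pth from 1% to under 5% (14 and 22) entered no comparison.

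Counts were summed per class and library and compared with edgeR 4.0.16 in R 4.3.3 (TMM scaling, filterByExpr, quasi-likelihood test, library as a block since both libraries hold all 5 classes of their own mice, 4 residual degrees of freedom). Replicates are separate pools of mice, and p-values reflect the spread of class differences over only these 2. TMM scaling placed the median gene off 0, for example at -0.67 between mural and parathyroid barcodes (-0.45 with DESeq2's size factors). Alternatives were DESeq2 1.42.0 and its scaling, no count filter, no replicate block, stricter limits and leaving out barcodes. The step was tested on simulated data. CPM intervals and floors (3 counts) cover counting error only. Sequences are RefSeq's and positions GENCODE's, both of GRCm38, the genome of mm10.

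Collagens at 20 CPM or more in both libraries of some class were named with their values. From each pathway list, up to 2 called genes per direction and the uncalled gene of highest level were eligible. The members and lists were chosen with earlier results of these data known.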

Additional observations from a re-analysis of the deposited data

Results flagged for a closer look

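Some barcodes that no comparison used also held collagen UMIs, above the 3 that a count of 0 allows. In barcodes left without a class, all collagens together were at 1501 CPM in replicate 1 and 4669 CPM in replicate 2. In barcodes with Pth between 1% and 5% they were at 920.1 CPM in replicate 1 and 690.2 CPM in replicate 2. Of those collagen UMIs, fibrillar genes made up 42.1 and 35.3% in the barcodes without a class and 5.07 and 4.35% in those with Pth between the limits.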

How the results depend on the processing

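Of 138 called pairs of a collagen and a comparison, 119 were called under each of the 10 alternative fits, 19 were lost under 1 or more, and none changed direction in those fits. DESeq2 lost 10 of the 138, leaving out the barcode richest in collagen in each class lost 6, the fit without the replicate block lost 5, and the other alternatives lost at most 5. With no replicate block, the number of collagens called stayed within 1.5 times that of the blocked fit in all 7 comparisons. The count between mural and endothelial barcodes moved from 14 to 23 without the filter on low counts and to 22 with predicted doublets kept. Between immune and parathyroid barcodes it moved from 16 to 25 with predicted doublets kept. The cause was not tested. Leaving out a library leaves no residual degrees of freedom, so only fold changes were compared. Without replicate 2, Col5a3 between mural and parathyroid barcodes turned from 4.38 to -0.69 (4.27 without replicate 1), and no other called pair changed direction without either library. Leaving out the mixed parathyroid barcodes and keeping predicted doublets were chosen after seeing the data. Mural levels rest on 26 barcodes in 2 pools, and a collagen with no mural UMI may still be at up to 11.1 CPM (3 counts over both libraries).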
